A study of Sus scrofa with 12 samples.

Results

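CA3 encodes carbonic anhydrase 3, and its mRNA was followed here as 1 gene of the 31903 gene identifiers in the deposited expression table. Its row is the one with the identifier ENSSSCG00000006141, which the study's list of changed fat genes pairs with the symbol CA3. In the RefSeq annotation of Sscrofa11.1 the gene is protein-coding and lies on chromosome 4 from 51227485 to 51237861. The samples were 12 RNA libraries from unmated Dingyuan sows, a native Chinese pig breed, all 300 days old by the labels and kept under the same feeding conditions. The back subcutaneous fat was split by backfat thickness into a low (LBF) and a high (HBF) group, and the longissimus dorsi (LD) muscle by intramuscular fat content into a low (LIMF) and a high (HIMF) group, with 3 libraries in each. The sows carried no transgene or treatment, and the study picked them for very high or very low live backfat at similar body weights. Intramuscular fat was measured after slaughter, so LIMF and HIMF were formed among sows picked by backfat. The labels do not say which fat and muscle libraries came from the same sow, so a pig may stand in both tissues.

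Carbonic anhydrases are zinc enzymes that turn carbon dioxide and water into bicarbonate and a proton. CA3 is a cytosolic member with a low hydratase activity for its family, and it is known as a very abundant protein of fat cells and of slow, oxidative skeletal muscle fibres. The bicarbonate made by the family feeds carboxylases of lipid and amino acid metabolism, and its members also serve in acid removal from working muscle.

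CA3 was among the more abundant mRNAs of both tissues. Within a group, the highest library held 4.80 times the lowest in LBF and 4.39 times in HBF, against 2.55 times in LIMF and 2.45 times in HIMF. Levels are given as FPKM, the fragments scaled by transcript length and library size, so they can be set side by side between genes. The 3 LBF libraries held 521, 211 and 1013 FPKM of CA3, and the HBF libraries 119, 50.3 and 221 FPKM. The LIMF libraries held 2548, 1001 and 1687 FPKM, and the HIMF libraries 1433, 584 and 944 FPKM. The highest library was of LIMF and the lowest of HBF, and single libraries of neighbouring groups changed places.

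**Figure D1:**
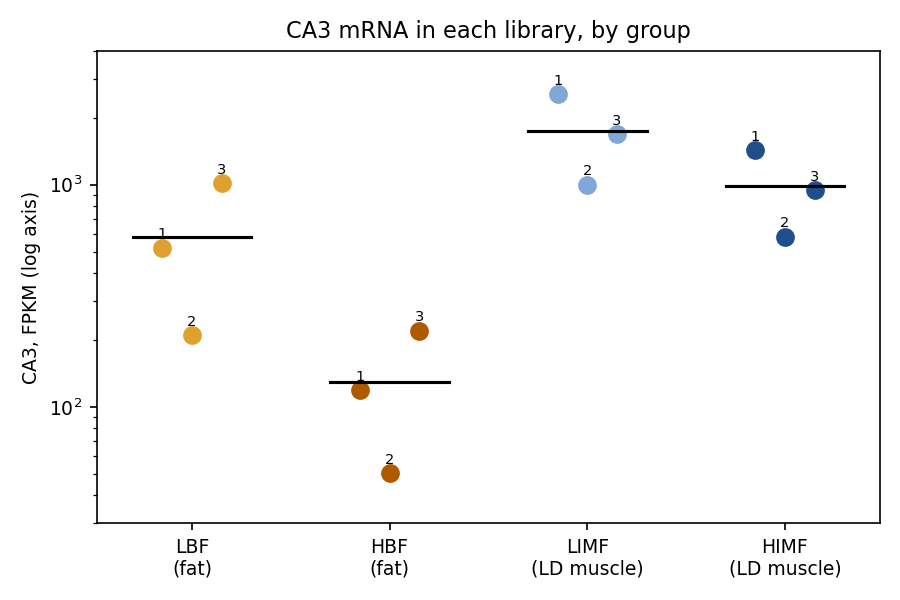
CA3 mRNA in FPKM on a log axis for each of the 12 libraries, with 1 point per library marked by its replicate number and a black line at the group mean. The points run from 50.3 FPKM in HBF to 2548 FPKM in LIMF, and the LIMF and HIMF points all lie above the HBF points.

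As group means, the level was 1746 ± 775 FPKM in LIMF, 987 ± 426 in HIMF, 582 ± 405 in LBF and 130 ± 85.7 in HBF (SD, n = 3 each). Neighbours in this order were not separated by their spread on the FPKM as deposited. The mean of LIMF was 1.77-fold that of HIMF, that of HIMF 1.70-fold that of LBF and that of LBF 4.47-fold that of HBF, and in each of these pairs the libraries overlapped. LIMF and LBF overlapped as well, at a ratio of 3.0. Only HBF stood clear of another group, since all of its libraries were below all of LIMF, with a ratio of means of 13.4, and below all of HIMF, with a ratio of 7.59. The order of the means was the same under each scaling tried, but the ratios and overlaps were not. After median-of-ratios scaling the means were 2580 in LIMF, 1365 in HIMF, 413 in LBF and 86.4 in HBF, with LIMF 6.25-fold and HIMF 3.30-fold over LBF, and only LIMF and HIMF then overlapped. LBF and HBF also stood just clear of each other when libraries were scaled to equal totals, and LIMF and LBF after quantile normalization.

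The place of CA3 among all genes shows the same order. It ranked 98, 216 and 49 by FPKM in the LBF libraries and 431, 1028 and 204 in the HBF libraries. In the muscle it ranked 30, 44 and 34 in LIMF and 44, 83 and 54 in HIMF. Its share of the summed FPKM of a library ran from 0.0105% in HBF replicate 2 to 0.565% in LIMF replicate 1. By mean level over the 6 fat libraries, the named genes next to CA3 were NUPR1, a stress-response regulator, and FASN, the fatty acid synthase, just above it at 358 FPKM each, and AGT, angiotensinogen, at 355 and OAZ1, ornithine decarboxylase antizyme, at 353 below it. In the muscle they were the translation factor EIF1 at 1592 and BBS5 at 1397 FPKM above it and the glycolytic enzyme TPI1 at 1317 and the small heat shock protein HSPB1 at 1213 below it.

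Few genes varied between libraries of 1 group as much as CA3 did in fat. On the scale of log2(FPKM + 0.1) the SD of CA3 was 1.14 for LBF and 1.07 for HBF, against a median over all genes of 0.28 and 0.25. In LBF 95.5% of genes and in HBF 96.4% had a smaller SD. Among genes with a mean level between 4 times lower and 4 times higher than that of CA3, the share was 97.7% of 304 genes in LBF and 98.5% of 1484 in HBF. In the muscle CA3 varied less, with an SD of 0.68 in LIMF and 0.65 in HIMF, where the median over all genes was 0.39 and 0.28. Of the genes of a similar level, 68.9% of 103 in LIMF and 96.5% of 170 in HIMF had a smaller SD than CA3. Over the 6 libraries of a tissue the highest and the lowest CA3 level were 20.2-fold apart in fat and 4.37-fold apart in muscle.

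**Figure D2:**
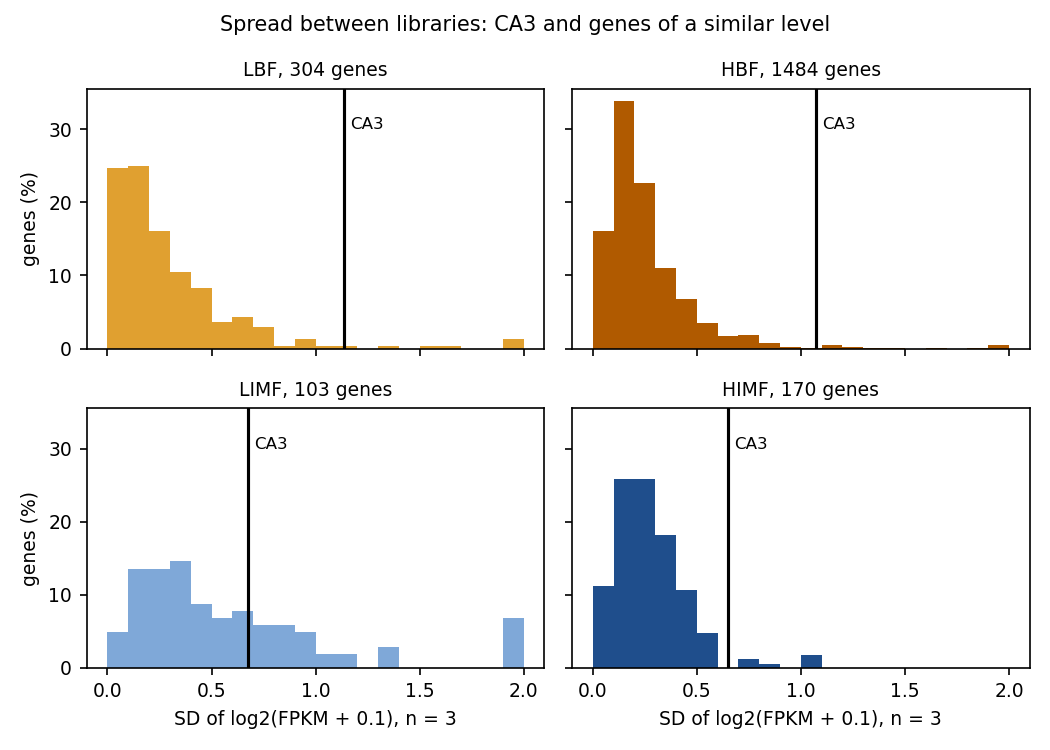
Histograms of the SD of log2(FPKM + 0.1) over the 3 libraries of each group, in percent of the genes whose mean level was within 4-fold of that of CA3 (values of 2 and above are in the last bar), with a black line at CA3. The line lies far to the right in LBF (1.14) and HBF (1.07), near the edge of the distribution in HIMF (0.65) and within it in LIMF (0.68).

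Muscle held more CA3 mRNA than fat. The mean was 1366 ± 697 FPKM over the 6 muscle libraries (584 to 2548, median 1217) and 356 ± 360 FPKM over the 6 fat libraries (50.3 to 1013, median 216), and the tissues overlapped only through LBF replicate 3 at 1013 FPKM, which exceeded 3 of the muscle libraries. After median-of-ratios scaling the tissues did not overlap in CA3. Of all genes tested, 59.6% did not overlap between the tissues as deposited. On the scale of log2(FPKM + 0.1), muscle was higher by 2.41 (SE 0.45, 95% interval 1.43 to 3.4), or 5.33-fold, at an adjusted p of 0.00036 in limma. An exact two-sided permutation test of the 12 libraries gave p = 0.00866, or 0.0173 when adjusted over the 2 permutation tests made of CA3, where 924 arrangements allow no p below 0.00216. If any pig gave a library to both tissues, these libraries are not all independent. In bulk tissue, fewer cells of a type and less of the RNA per cell cannot be told apart, and this holds for each difference given here.

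Many genes differed between the tissues on the FPKM as deposited, mainly towards lower values in muscle. Of 15965 genes tested, 56.4% passed an adjusted p under 0.01 with an absolute log2 difference of at least 1 in limma, 9.29% of those tested as higher and 47.1% as lower in muscle. CA3 was among the genes called higher. The median gene was 0.97 lower in muscle on the log2 scale, so that CA3 stood 3.38 above it, and 3.91% of genes had a greater difference. Of the genes called, 16.5% were higher in muscle on the FPKM as deposited, against 44.8% after median-of-ratios scaling and 45.8% after quantile normalization. With these scalings 47.7% and 42.5% of genes passed the limits, and with a pseudocount of 1 in place of 0.1 it was 36.7%. CA3 was called higher in muscle under all 3, by 3.46, 2.38 and 2.41.

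The level of CA3 was set beside what RNA of the other tissue would give. Fat libraries held small amounts of mRNA of muscle genes, most of all LBF replicate 3, with 107 FPKM of ACTA1, the skeletal muscle actin, and 43.2 of TNNI2, fast troponin I, where the other 5 fat libraries held less than 1 FPKM of either. From the median of 19 muscle genes, scaled to the mean CA3 level of muscle, muscle RNA alone would give 9.18 FPKM of CA3 in that library, 0.906% of the level measured there, and 12.8 FPKM by the fast fibre genes. In the other fat libraries it would give from 0.389 to 0.714 FPKM, at most 1.35% of the level measured, in HBF replicate 2. In the reverse direction, the medians over fat genes would give between 0.893 and 3.11 FPKM of CA3 in a muscle library, at most 0.365% of its level, by 14 adipocyte genes, and up to 13.7 FPKM, at most 1.36% of its level, by the lipogenesis genes. The defining genes were present in the tissue each label names, with summed levels of 19 adipocyte genes of 9528 to 15530 FPKM in fat and 534 to 967 FPKM in muscle. ACTA1 was listed at 0 in 4 of the muscle libraries and CKM, the muscle creatine kinase, in 2, beside values of 7172 or more in the other muscle libraries, so their level in muscle was uncertain, and both were among the 19 genes used above. Without them, in an estimate added after the data were seen, the 17 others gave 8.96 FPKM of CA3 in LBF replicate 3 and at most 1.44% of the level measured in any other fat library. These are medians over genes of unlike ratios: the highest member, FBXO32, a ubiquitin ligase gene of muscle wasting singled out after its values were seen, would give from 50.1 to 113 FPKM of CA3 in the fat libraries, above the 50.3 FPKM measured in HBF replicate 2, where it would give 102 FPKM. In the muscle libraries the highest adipocyte gene would give from 15.6 FPKM of CA3 to 186 FPKM, the latter by PCK1 in LIMF replicate 2, where it is 18.6% of the level measured, and at most 3.82% in the other muscle libraries. What part of the CA3 level of a tissue comes with RNA of the other was not tested.

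Within fat, CA3 was lower where the backfat was thick. The difference of HBF minus LBF was -2.13 on the scale of log2(FPKM + 0.1) (SE 0.69), which is 4.38-fold. CA3 was taken from a list of genes that the study found changed between these same libraries, so the difference is a description and carries no test. Of the 9 pairs of an LBF and an HBF library, 8 had the higher level in LBF, and the exception was HBF replicate 3 at 221 FPKM over LBF replicate 2 at 211 FPKM, while 20.4% of all genes did not overlap between the groups, 13.9% as higher and 6.46% as lower in HBF. Over all 16239 genes, 0.271% had a lower difference, and the median gene differed by 0.09. No gene passed the limits in limma (0% of those tested, smallest adjusted p 0.128), while 2206, or 13.6%, had an unadjusted p under 0.05. At the same limits the study did call genes between these groups, CA3 among them. It used DESeq2, a test of read counts that could not be rerun on FPKM. Leaving out LBF replicate 3, the library with muscle mRNA, gave a difference of -1.59, and leaving out HBF replicate 2, the lowest, gave -1.57. The difference grew to -2.72 without LBF replicate 2 and to -2.63 without HBF replicate 3.

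Within muscle, CA3 also had its lower mean in the group with more fat, and the difference did not pass the test. HIMF minus LIMF was -0.82 on the scale of log2(FPKM + 0.1) (SE 0.47), with an adjusted p of 0.778 in limma. The exact two-sided permutation test gave p = 0.20, where 3 libraries against 3 allow no p below 0.10. The 95% interval of the difference, from -1.91 to 0.28, holds values from 3.77-fold lower to 1.22-fold higher in HIMF. Of all 14292 genes tested, 4.28% had a lower difference, 0% passed the limits, the smallest adjusted p was 0.362 and 1004 genes, or 7.02%, had an unadjusted p under 0.05. The CA3 levels of the groups overlapped, as did those of all but 12.7% of genes. The 2 differences of CA3, -2.13 in fat and -0.82 in muscle, were 1.31 apart (SE 0.90), a distance that was described and not tested, since it contains the fat difference.

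**Figure D3:**
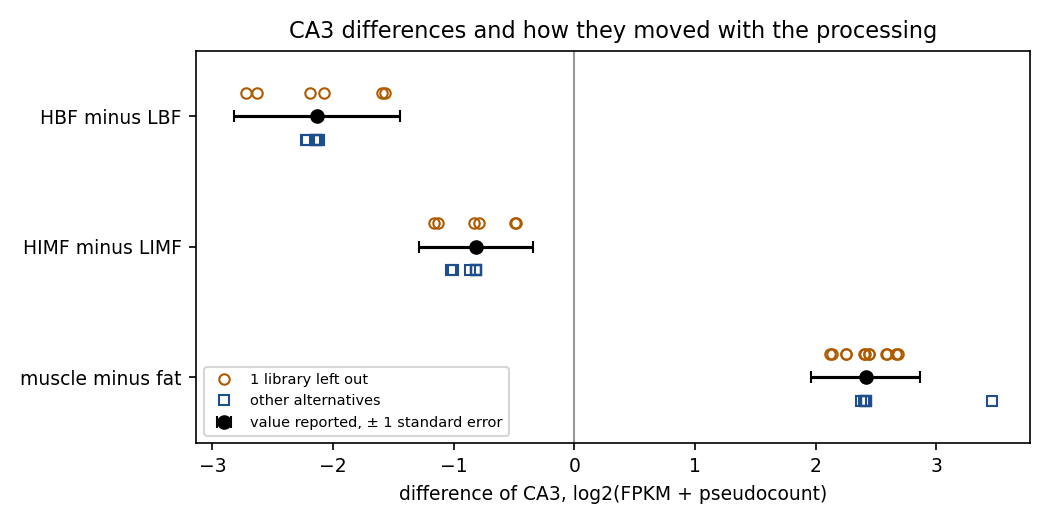
Difference of CA3 on the log2 scale for the 3 comparisons: filled points are the values reported with 1 standard error to each side, open circles leave out 1 library and open squares are the other alternatives. No alternative crossed 0, and the values ran from -2.72 to -1.57 for HBF minus LBF, from -1.17 to -0.48 for HIMF minus LIMF and from 2.12 to 3.46 for muscle minus fat.

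CA3 made up most of the carbonic anhydrase mRNA in 11 of the 12 libraries. Of 16 family members looked for, 13 had a row. CA3 supplied 96.9%, 79.3% and 97.7% of their summed FPKM in the LBF libraries and 72.7%, 39.4% and 88.8% in the HBF libraries. Its share in the LIMF libraries was 99.4%, 98.1% and 99.4%, and in the HIMF libraries 99.3%, 93.7% and 94.99%. The exception was HBF replicate 2, where the largest part, 56.1%, came from CA4, the form anchored at the outer cell surface and known from capillary endothelium.

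**Figure D4:**
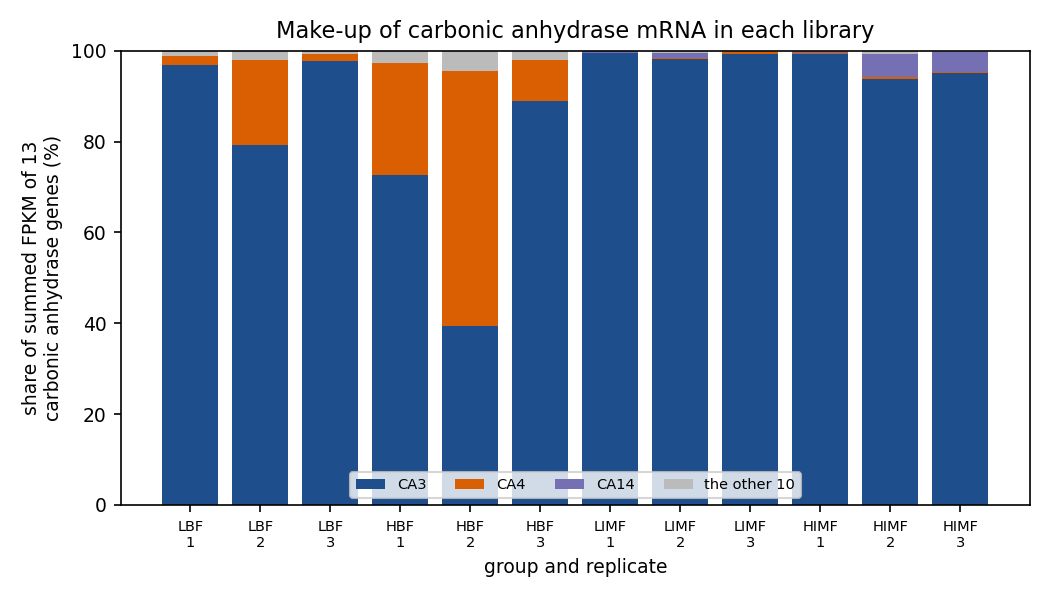
Stacked bars of the share of each carbonic anhydrase in the summed FPKM of the 13 family members with a row, in percent, for each of the 12 libraries. CA3 (blue) fills 93.7% or more of every muscle bar and between 39.4% and 97.7% of the fat bars, where CA4 (orange) takes most of the rest.

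CA4 was the family's other abundant member in fat and differed between the tissues in the opposite direction to CA3. Its level was 11.102, 49.7 and 16.9 FPKM in LBF and 40.4, 71.6 and 22.5 FPKM in HBF. In muscle it was between 1.71 and 5.08 FPKM, below every fat library, and it was called lower in muscle by 3.33 on the log2 scale (SE 0.39, adjusted p 7.4e-06 in limma). Among the fat libraries, CA4 was highest in HBF replicate 2, where CA3 was lowest, and lowest in LBF replicates 1 and 3, where CA3 was highest. HBF minus LBF of CA4 was 0.93 (SE 0.61) and did not pass the test (adjusted p 0.54 in limma).

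CA14, a membrane-spanning carbonic anhydrase with its active site outside the cell, was the only other member called higher in muscle. Its level was 11.8, 11.8 and 0.944 FPKM in LIMF and 2.64, 31.8 and 44.4 FPKM in HIMF, and 0.0426 FPKM or less in every fat library. The difference between the tissues was 6.37 (SE 0.73, adjusted p 6.4e-06 in limma). CA14 differed 47.1-fold between the highest and the lowest muscle library, against 4.37-fold for CA3, and HIMF minus LIMF of CA14 was 1.58 (SE 1.24, adjusted p 0.83 in limma).

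The remaining members were low everywhere. CA13, a cytosolic form, was between 1.0 and 3.20 FPKM in the 12 libraries and CA2, the fast cytosolic form of red blood cells and many tissues, between 0.222 and 2.34 FPKM. CA12, another surface form, was at 0.574 to 1.39 FPKM in fat and at 0.0346 or less in 5 muscle libraries with 1.32 in LIMF replicate 2, and it was called lower in muscle by 2.40 (SE 0.54, adjusted p 0.0015 in limma). The mitochondrial CA5A and the catalytically inactive relatives CA8, CA10 and CA11 reached at most 0.945 FPKM, CA1 and CA7 at most 0.153, and the secreted CA6 was listed at 0 in all 12 libraries. Of the 10 members tested between the tissues, 2 were called higher (CA3 and CA14) and 2 lower (CA4 and CA12) in muscle, 20% each way beside 9.29% higher and 47.1% lower of all genes, with a median difference of -0.65 beside -0.97 over all genes. Leaving aside CA3, none of 8 members tested was called between HBF and LBF, and with CA3 none of 8 between HIMF and LIMF.

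Enzymes that use bicarbonate or pass nitrogen were mostly lower in muscle, as the median gene was. Of 11 members tested between the tissues, 8 (72.7%) were called lower in muscle, where 47.1% of all genes were, and 1 (9.09%) higher, where 9.29% of all genes were. Pyruvate carboxylase (PC), which makes oxaloacetate from pyruvate and bicarbonate, was the most abundant of the list, at 644, 759 and 526 FPKM in LBF, 417, 572 and 492 in HBF and 4.06 to 12.6 in muscle, a difference of -5.99 (SE 0.20). The LBF library with the most CA3, replicate 3, had the least PC of its group. Acetyl-CoA carboxylase (ACACA), which commits acetyl-CoA to fatty acid synthesis, was at 15.4 to 41.0 FPKM in fat and at 1.24 or less in muscle (-4.66, SE 0.24).

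The carboxylases of propionyl-CoA and of leucine breakdown were lower in HBF than in LBF without overlap, as single genes with 0 called. PCCA was at 26.9, 20.7 and 21.7 FPKM in LBF and 12.6, 11.2 and 12.4 in HBF, and MCCC2 at 85.1, 95.9 and 67.3 against 31.3, 48.2 and 33.2 FPKM. PCCB and MCCC1 had differences of -0.49 and -0.58, so that 4 of the 13 members tested were lower in HBF without overlap, where 6.46% of all genes were so. Unlike these genes, CA3 overlapped between the groups on the FPKM as deposited, while its mean differed by more. The glutamate dehydrogenase GLUD1 was nearly level, at 76.1 to 86.9 FPKM in LBF and 80.3 to 83.5 FPKM in HBF. In the muscle 0 of 11 members was called between HIMF and LIMF. MCCC1 was the member called higher in muscle (1.51, SE 0.29).

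Carriers of bicarbonate, protons, lactate and water split between the tissues. Of 11 members tested, 3 (27.3%) were called higher in muscle and 3 (27.3%) lower, beside 9.29% and 47.1% of all genes. SLC16A3, the lactate and proton exporter of glycolytic muscle, was at 40.9, 37.5 and 19.2 FPKM in LIMF, 42.2, 52.8 and 55.8 in HIMF and 1.90 or less in fat (5.08, SE 0.25). The anion exchanger SLC4A2 was lower in muscle, at 2.63 FPKM or less against 13.7 to 22.9 in fat (-3.22, SE 0.19). The water channel AQP1, also a marker of capillary endothelium, was at 186, 36.1 and 35.9 FPKM in LBF and 200, 84.9 and 118 in HBF, and did not follow CA3 across these libraries. No member was called between HBF and LBF or between HIMF and LIMF.

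In muscle, CA3 was set beside genes of slow and fast fibres. The slow list had rows for 8 of 14 genes, led by MYL2, TNNC1, TNNI1 and TNNT1, the slow light chain and troponins, and its summed level came to 9682, 4693 and 21392 FPKM for LIMF and to 5404, 2821 and 7868 FPKM for HIMF. The fast list had rows for 12 of 16 genes, led by MYL1, TPM1, TNNI2 and TNNT3, and its sum was 28794, 23688 and 18109 FPKM in LIMF and 34046, 30850 and 22884 FPKM in HIMF. In HIMF minus LIMF, 8 of 8 slow genes were lower, with a median of -1.03, and 0 of 12 fast genes were lower, with a median of 0.40, against 0.04 over all genes. No gene of either list was called, and the value of CA3, -0.82, lay within the range of the slow genes, -2.50 to -0.42.

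CA3 followed the slow sum only in part. In both muscle groups replicate 2 had the lowest CA3 and the lowest slow sum, whereas replicate 3 had the highest slow sum and a CA3 level between those of the other libraries. For each 100 FPKM of slow genes there were 26.3, 21.3 and 7.89 FPKM of CA3 in LIMF and 26.5, 20.7 and 11.99 FPKM in HIMF. The ratio thus covered almost the same range in both groups, while CA3 itself had means of 1746 and 987 FPKM. What part of the CA3 difference goes with fibre composition was not tested. Of the adipocyte list, 6 of 16 genes were lower in HIMF, with sums of 534 to 963 FPKM in LIMF and 818 to 967 in HIMF. The largest part of these sums was GPD1, at 316, 177 and 491 FPKM in LIMF and 535, 720 and 603 FPKM in HIMF. GPD1 was higher in muscle than in fat by 0.96 on the log2 scale (SE 0.23), so the sums do not stand for adipocytes alone. Without overlap, 5 of the 16 were higher in HIMF, where 7.93% of all genes were so, and 1 was lower, where 4.74% were, with 0 called. ADIPOQ, the adiponectin gene, was at 4.27, 6.46 and 1.31 FPKM in LIMF and 21.8, 8.36 and 11.2 FPKM in HIMF, and LPL, the lipoprotein lipase, went the other way, at 85.1, 76.3 and 136 FPKM against 40.4, 21.6 and 67.0 FPKM.

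In fat, the adipocyte genes differed in both directions, with 0 called. Of 18 tested, 10 were lower in HBF, with a median of -0.06 beside 0.09 over all genes and a range from -1.54 to 0.96, and the sum was 9528, 11531 and 12618 FPKM in LBF and 11034, 15530 and 9721 FPKM in HBF. The most abundant were FABP4, ADIPOQ, LPL and LIPE, and RETN was listed at 0 in all libraries. HBF replicate 2, the library with the least CA3, had the highest adipocyte sum. Per 100 FPKM of adipocyte genes there were 5.46, 1.83 and 8.03 FPKM of CA3 in LBF and 1.08, 0.324 and 2.27 FPKM in HBF.

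Other lists, with 0 genes called, had mostly lower values in HBF, as CA3 did. Of 16 genes of lipogenesis, 12 were lower in HBF, 7 of them without overlap, where 6.46% of all genes were so, and 1 gene (FADS2, a fatty acid desaturase) was higher without overlap, where 13.9% of all genes were so, with sums of 6155, 1754 and 2555 FPKM in LBF and 2165, 949 and 1654 FPKM in HBF. The list was led by SCD, FASN, TKT and ELOVL6, and FASN was at 980, 333 and 581 FPKM in LBF and 65.1, 51.0 and 134 FPKM in HBF. Of 12 genes of stromal fibroblasts, 9 were lower in HBF with a median of -0.53, 0 of them without overlap and 0 with an unadjusted p under 0.05, while 1 (DPP4) was higher without overlap. They were led by COL3A1, DCN, COL1A1 and COL1A2, and their sums were 8025, 2555 and 6747 FPKM in LBF and 3180, 1789 and 4098 FPKM in HBF. As for CA3, the library with the lowest sum of each group was replicate 2 in the stromal and in the lipogenesis list, and their part in the CA3 difference was not tested.

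Lists of blood, vessel, immune and muscle cells also had unlike sums in the fat groups. Of 5 red blood cell genes tested, 4 were lower in HBF, with sums of 254 to 629 FPKM in LBF and 49.8 to 195 FPKM in HBF, nearly all of it from HBB, the beta globin. Of 7 endothelial genes, 0 were lower in HBF, with sums of 230 to 475 FPKM against 422 to 684 FPKM, led by PECAM1, EGFL7, ESAM and CDH5. Of 12 macrophage and leukocyte genes, 3 were lower, with sums of 94.6 to 225 against 206 to 241 FPKM, led by C1QB, CSF1R, CD163 and CD68. Of 17 muscle genes tested, 16 were lower in HBF, with sums of 73.6 to 305 FPKM against 76.7 to 79.0 FPKM, a difference in range set by LBF replicate 3. No gene of these lists was called, and their part in the CA3 difference was not tested. Among 13 antioxidant and oxidative genes, led by GPX3, PRDX2, CAT and PRDX3, 8 were lower in HBF and 0 were called, and 8 (61.5%) were called lower in muscle, where 47.1% of all genes were.

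**Figure D5:**
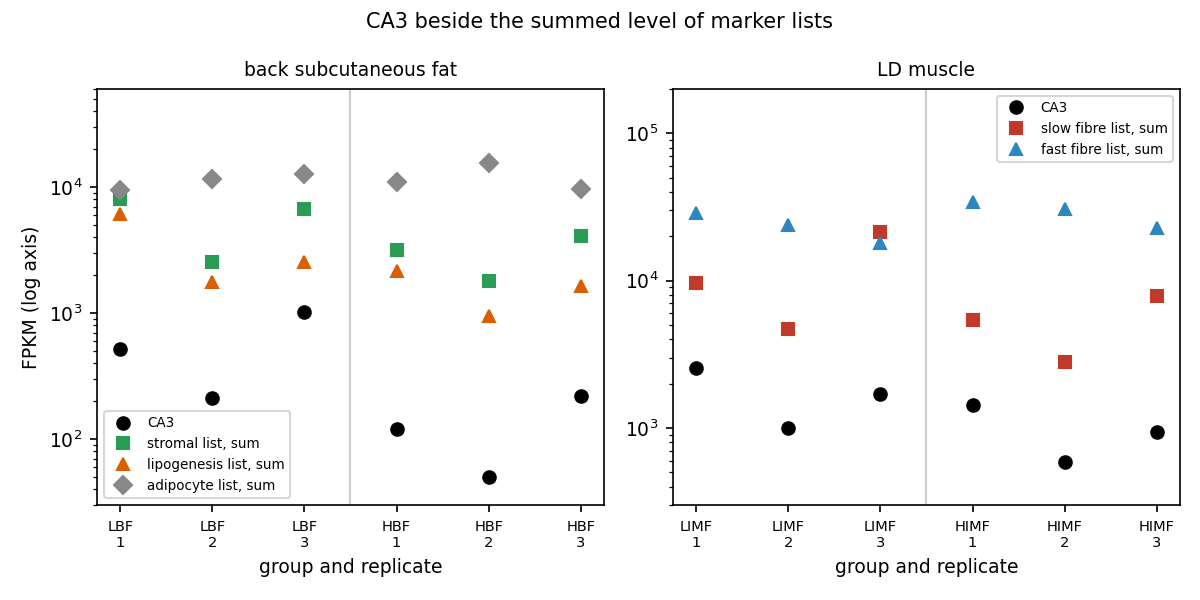
CA3 (black circles) and the summed level of marker lists, in FPKM on a log axis, for the 6 fat libraries (left) and the 6 LD muscle libraries (right), with a grey line between the low and the high group. In fat the stromal and lipogenesis sums are lowest in replicate 2 of each group, as CA3 is, while the adipocyte sum stays between 9528 and 15530; in muscle the slow fibre sum peaks in LIMF replicate 3 at 21392, where CA3 is 1687.

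The genes with a pattern most like CA3 were not the same in the tissues. Likeness was measured as Pearson's r on log2(FPKM + 0.1) among genes with a mean FPKM above 1, as a description over few libraries that share their group differences. Over the 6 fat libraries the named genes at the top of 10034 were TBC1D2B (r = 0.986), HOXA10 (0.976), ARHGAP10 (0.976), RAP2A (0.974) and ASB9 (0.972), and 87 genes of 11352 had r above 0.9. HOXA10, a homeobox gene of positional identity, was at 4.77, 3.77 and 10.7 FPKM in LBF and 1.22, 0.502 and 2.64 FPKM in HBF, a span close in fold to that of CA3. The other 4 ran in parallel over a far smaller range, as TBC1D2B did from 6.69 to 8.43 FPKM.

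Over the 6 muscle libraries the top of 8252 named genes was RIOK1 (r = 0.993), MTMR10 (0.978), DCAF1 (0.976), ASH1L (0.966) and TMEM185A (0.952), and 44 genes of 9224 had r above 0.9. RIOK1, a kinase of ribosome maturation, ran only from 1.38 to 2.05 FPKM there and had r = -0.56 to CA3 in fat. Over all 12 libraries no gene exceeded 0.9, and the highest of 9843 named genes were SLC22A16 (0.894), PFKFB1 (0.893), ZNF532 (0.874), TMEM11 (0.874) and HOXC10 (0.870). PFKFB1, which makes and breaks down the glycolytic regulator fructose 2,6-bisphosphate, was at 8.32, 2.39 and 8.77 FPKM in LBF, 0.584, 0.346 and 0.780 in HBF, 23.3, 14.2 and 26.0 in LIMF and 36.0, 46.1 and 36.3 in HIMF. It was thus lower in HBF and higher in muscle, as CA3 was, and had its higher level in HIMF, unlike CA3.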

How the data were processed

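RNA of 12 libraries, 3 for each group named in the labels, was sequenced on an Illumina NovaSeq. The authors cleaned the reads with fastp, mapped them with HISAT2 to the Sscrofa11.1 genome and deposited FPKM per Ensembl gene and library from Cufflinks 2.2.1. FPKM removes transcript length and the number of mapped reads and no longer shows the counts, so intervals and floors of counting error are not given. Summed FPKM ran from 420982 to 517796 per library. The 7 identifiers on 2 rows were summed, and 15027 of 31903 identifiers had a symbol in the table used.

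Groups were compared on log2(FPKM + 0.1) with limma 3.58.1 in R 4.3.3 (lmFit, eBayes with trend) and Benjamini-Hochberg adjustment, leaving out genes whose mean over the libraries compared was 0.05 FPKM or less. The limits of a call were 0.01 for the adjusted p and 1 for the size of the log2 fold change, and such fold changes understate those of low genes. The tissues were compared as means of their groups over all 12 libraries. The procedure was tested on simulated data. CA3 was also tested by exact permutation. The level that RNA of the other tissue would give used markers at least 10 times higher in that tissue.

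The gene and the 13 lists were chosen with earlier results of these data known. Named were CA3, its family, members of the lists of bicarbonate use and transport at a mean of at least 10 FPKM in a group, up to 4 of the highest members of each marker list, the 5 genes most like CA3 in each tissue and over all, and the 2 named genes on each side of it by level. RETN, FADS2, DPP4, PCK1, FBXO32 and GPD1 were chosen after their values were seen. So were the 4 genes of opposite direction in the tissues that the rule does not hold (SLC16A7, TXNRD1, CASQ1 and SLC4A4). Each library was taken as 1 pig of its group. Alternatives were pseudocounts of 1 and 0.01, other filters, 3 scalings, each library left out, the replicate number as a block, eBayes without trend, 1 fit of all libraries and other limits. No sequence is shown, and the protein measurements were not used here. Results for some genes of the lists are not reported here.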

Additional observations from a re-analysis of the deposited data

Results flagged for a closer look

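Of 175 genes looked at, 155 were tested in both tissues, and 6 of these (3.87%) had libraries of the high and the low group that did not overlap in either tissue, with opposite directions in fat and muscle, a pattern that 1.18% of all 13767 genes tested in both tissues showed. As HBF minus LBF less HIMF minus LIMF on the log2 scale, the value was 1.27 for SLC16A7, a monocarboxylate carrier, and 1.37 for TXNRD1, a thioredoxin reductase. It was -2.47 for CASQ1, the fast fibre calsequestrin, and -1.34 for SLC4A4, a sodium bicarbonate carrier. It was -4.08 for PFKFB1 and -3.45 for FASN. In the limma test of this difference the adjusted p of these 6 genes ran from 0.136 to 0.477, none passed, and over all 15965 genes tested the smallest was 0.0748. CA3 was lower in the high group of both tissues and was not among them. CASQ1 in fat was at 3.11 FPKM in LBF replicate 3, the library with muscle mRNA. It was at 0.534 FPKM or less in the other fat libraries, with 0.113 or less in HBF. SLC16A7 in muscle was at 0.404 FPKM in LIMF replicate 3 and at 0.0771 or less in the other muscle libraries. At such levels the pseudocount of 0.1 weighs on the log2 values. What part of the CASQ1 value comes with muscle RNA was not tested.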

How the results depend on the processing

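The direction of each CA3 difference was the same in every alternative run. Muscle minus fat was called in all 21, from 2.12 to 3.46 with adjusted p in limma from 1.2e-05 to 0.0042, and HIMF minus LIMF in none of 16. Without 1 library, HBF minus LBF ran from -2.72 to -1.57, HIMF minus LIMF from -1.17 (without LIMF replicate 2) to -0.48 (without HIMF replicate 2) and muscle minus fat from 2.12 to 2.68. Genes past the limits numbered 0 to 2 between HBF and LBF and 0 to 5 between HIMF and LIMF without 1 library, and 1 between HIMF and LIMF with all 12 libraries in 1 fit. Between the tissues there were 5864 with a pseudocount of 1 against 9009, and 12690 at an adjusted p under 0.05 with no limit on the fold. With every library scaled to the same total of 1e+06 FPKM, the mean of CA3 was 1301 in LBF, 266 in HBF, 3946 in LIMF and 1939 in HIMF, and median-of-ratios scaling gave 413, 86.4, 2580 and 1365 in the same order. Without 1 library the LBF mean ran from 366 to 767, the HBF mean from 84.8 to 170.0, the LIMF mean from 1344 to 2118 and the HIMF mean from 764 to 1188.

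Over 18 pairs of same-numbered libraries the deviations from the group means had r from -0.07 to 0.17 across 11082 genes. Pairs of unlike number were not set beside them, so whether the replicate number marks a pairing was not tested. CA3 itself was lowest in replicate 2 of every group. Without a block the SE of its difference in fat was 0.69. With the replicate number as a block, CA3 differed by -2.13 (SE 0.15) in fat, by -0.82 (SE 0.29, adjusted p 0.733 in limma) in muscle and by 2.41 (SE 0.26, adjusted p 1.2e-05 in limma) between the tissues, with 0, 0 and 9000 genes called. The block left CA3 called between the tissues and not called in muscle. Without it, 9009 genes were called between the tissues. FPKM without counts and 3 libraries in a group limit all of these values.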
